A study of Rattus norvegicus with 20 samples.

Results

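The 9 genes described here encode the transcription factor Nrf2 (Nfe2l2), its sensor Keap1, and 7 antioxidant genes that Nrf2 is known to drive: Nqo1, Hmox1, Gclc, Gclm, Slc7a11, Txnrd1 and Srxn1. They were chosen by symbol, and all 9 were found among the 17168 genes of the tables. Hippocampal mRNA of 20 female rats was sequenced at 4 months of age, with 1 library per rat. TgF344-AD rats carry 2 human transgenes, APPsw and PS1-∆E9, both under the prion promoter. The genotype comparison held 5 untreated wild-type rats (WTNT) and 5 untreated transgenic rats (TGNT). The treatment comparison held 4 other TGNT samples, taken as different rats, and 6 transgenic treated rats (TGTR). The chow of the TGTR rats held diazoxide (DZ) and dibenzoylmethane (DIB) from day 52 of age. The doses were 10 mg/kg per day of DZ and 200 mg/kg per day of DIB. The design text names the untreated rats of the treatment comparison as Tg-1 to Tg-5 in 1 place and as 4 rats in another, and 4 were analysed here. All 10 rats of the treatment comparison carry both transgenes, so it has no wild-type rat. The labels name the left hippocampus and the paper's methods the right, so the side is uncertain.

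Nrf2 is held in the cytoplasm by Keap1, which hands it over to a ubiquitin ligase for degradation. Oxidants and electrophiles modify cysteines of Keap1, Nrf2 then escapes degradation, enters the nucleus, pairs with a small Maf protein and binds the antioxidant response element (ARE) of its target genes. Much of this control acts on the protein, so the mRNA of Nfe2l2 need not move when the pathway is switched on, and the mRNA of the targets is the usual readout. In brain the pathway is best known from astrocytes, which supply neurons with glutathione precursors. DIB, a plant β-diketone, is known to induce Nrf2 target genes in other tissues, and whether the treated rats held more of these transcripts is a question the comparison of TGTR with TGNT rats can address.

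The ARE core is usually written TGACNNNGC, where N is any base. It was searched on both strands of the RefSeq windows of assembly GRCr8, which hold 250 bases before and 50 bases after a gene's start. Windows were available for 8 of the 9 genes, with 2 for Txnrd1 and 0 for Hmox1. The core was found in 3 of these 9 windows (33.3%), in 1 window each of Gclm, Nfe2l2 and Txnrd1. By comparison, 12.1% of all 33469 windows and 14 of 57 windows (24.6%) of other genes of the pathway held it. A match is a description of letters and not a bound site, and AREs that lie farther from a start are outside these windows. The 3 matches are shown within 30 bases, 5′ to 3′ on the strand that reads the core, with the core in capitals.
Gclm, chr2:213031953-213031982, minus strand, core at -172 to -164 from the start: ctggaagacaaTGACTAAGCagaaaccgca
Nfe2l2, chr3:81028950-81028979, minus strand, core at 39 to 47 after the start: actgctccgactagccatTGACGCCGCctc
Txnrd1, chr7:22755963-22755992, plus strand, core at -78 to -70 from the start: ccgtgtcagaaTGACAAAGCaaaaatccag

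For Gclm the 250 bases before the start are also shown, on the gene's strand. It was chosen because, of the 8 other genes, it varied most closely with Nfe2l2 in the genotype table. In the treatment table no such relation was detected, and a link between the core and the relation was not tested. The ARE core is in capitals and reads GCTTAGTCA here, since it lies on the opposite strand.
Gclm, chr2:213031885-213032134, plus strand: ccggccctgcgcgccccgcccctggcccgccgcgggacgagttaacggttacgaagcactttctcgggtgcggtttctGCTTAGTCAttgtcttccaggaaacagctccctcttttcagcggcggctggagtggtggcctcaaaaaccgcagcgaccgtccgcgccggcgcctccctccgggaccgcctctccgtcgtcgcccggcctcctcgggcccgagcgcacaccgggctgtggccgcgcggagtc

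Estimated counts summed to between 5848458 and 9926088 per rat in the genotype table and to between 9215039 and 14175594 in the treatment table. Levels are given as the authors' RPM, read counts brought to a common library size with TMM (trimmed mean of M-values) factors, and 1 read stood for 0.0706 to 0.171 RPM. The tables were normalised apart, so tests were made within a table only. App, the check of the transgene, rose from 1101 ± 47.5 RPM in WTNT to 2187 ± 122 RPM in TGNT rats (SD, n = 5 each; log2 fold change 1.00; adjusted p = 2.45e-07 with edgeR's quasi-likelihood test). In the treatment comparison, 3 libraries stood apart in markers of other tissues. The summed level of 12 choroid plexus markers, Ttr leading, was 3026 RPM in TGTR rat 5 and 156 RPM in TGTR rat 6, against 16.2 to 28.2 RPM in the other 8 rats. TGTR rat 5 also held 748 RPM of 8 meningeal and fibroblast markers, and TGTR rat 4 held 1293 RPM of the 4 blood markers found. Neuronal, astrocyte and oligodendrocyte markers were present in every rat, with sums of at least 3168, 3847 and 4133 RPM. Microglial markers summed to 257 to 279 RPM in WTNT rats and to 274 to 288 RPM in TGNT rats, where 8 of 8 genes were higher and 0 at an unadjusted p under 0.05. Of 7 oligodendrocyte markers, 7 were lower in TGNT than in WTNT rats, 2 of them at an unadjusted p under 0.05, with sums of 4265 to 7719 against 4523 to 10211 RPM. Also lower were 6 of 7 neuronal markers, 0 at that p, and 8 of 12 choroid plexus markers, 1 at that p. Higher were 4 of 7 astrocyte, 2 of 6 endothelial, 6 of 8 meningeal and fibroblast and 3 of 4 blood markers. Of these last 4 lists 0 markers reached that p. In bulk tissue, fewer cells of a type and less RNA per cell cannot be told apart.

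No difference between TGNT and WTNT females was detected in any of the 9 genes. With edgeR's quasi-likelihood test 0 of 9 were called, which takes an adjusted p under 0.05 together with a change of at least 1.5-fold, the adjusted p was 1 for each, and 0 of 9 reached an unadjusted p under 0.05. The likelihood ratio test of edgeR, DESeq2 and limma-trend also called 0 of 9. Over all genes 0.0116% were called and 3.23% had an unadjusted p under 0.05. Here and below, such shares of all genes count all 17168, those without reads included. In RPM the groups overlapped for each of the 9 genes, whereas 0.513% of all genes had groups without overlap. The log2 fold changes ran from -0.11 for Srxn1 to 0.08 for Nqo1 and Slc7a11, with 5 genes higher, 4 lower and a median of 0.03. Across the 14634 genes with reads the median was 0.0068, and 52.0% were higher in TGNT rats. For every one of the 9 genes the 95% interval of the log2 fold change included 0 and lay inside a 1.5-fold change in either direction, and for 7 it lay inside 1.25-fold.

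Nfe2l2 measured 25.4, 30.4, 34.9, 27.7 and 28.997 RPM in the 5 WTNT rats and 22.5, 28.7, 29.7, 25.1 and 33.5 RPM in the 5 TGNT rats. Both the lowest rat and the second highest were transgenic, and the groups covered nearly the same range. The means were 29.4 ± 3.55 and 27.9 ± 4.26 RPM (SD, n = 5 each), a log2 fold change of -0.08 (95% interval -0.32 to 0.17; exact permutation test of the RPM, two-sided, p = 0.540). Keap1, the cytoplasmic repressor, measured 34.1, 29.2, 30.4, 30.2 and 32.3 RPM in WTNT rats. In TGNT rats it measured 37.6, 37.2, 28.6, 31.2 and 27.7 RPM, so that both the 2 highest and the 2 lowest values of the table were transgenic. Its log2 fold change was 0.06 (95% interval -0.14 to 0.27; exact permutation p = 0.595).

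The classical inducible enzymes had the fewest reads. Nqo1, a quinone reductase whose mRNA is the most used readout of Nrf2 activity, measured 7.79, 9.10, 8.88, 8.88 and 9.08 RPM in WTNT rats and 10.6, 9.65, 7.99, 9.48 and 8.35 RPM in TGNT rats. Of the TGNT rats 3 lay above every WTNT rat and the other two within the WTNT range, and the log2 fold change was 0.08 (95% interval -0.18 to 0.33; exact permutation p = 0.389). Hmox1, which degrades haem to biliverdin, iron and carbon monoxide, measured 4.14, 2.15, 2.41, 4.27 and 2.39 RPM in WTNT rats and 3.37, 3.17, 2.66, 2.54 and 2.62 RPM in TGNT rats. All 5 TGNT values fell in the gap between the 3 low and the 2 high WTNT values. With 15 to 27 counts per rat it had the widest interval of the 9 genes, -0.56 to 0.45 around a log2 fold change of -0.06 (exact permutation p = 0.667). Its coefficient of variation was 33.9% in WTNT and 13.02% in TGNT rats, where counting error alone gives 21.8% and 21.4%.

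Of the glutathione genes, Gclc and Gclm encode the catalytic and the modifier subunit of glutamate-cysteine ligase, the rate-limiting enzyme of glutathione synthesis. Gclc was among the steadiest of the 9, with 84.5 to 91.8 RPM in WTNT rats and 84.7 to 88.6 RPM in TGNT rats. Its coefficients of variation of 3.49% and 2.13% were below the 3.98% and 3.89% that counting error alone gives, and its log2 fold change was -0.01 (95% interval -0.13 to 0.10; exact permutation p = 0.476). Gclm measured 23.7, 31.2, 35.2, 30.2 and 31.1 RPM in WTNT rats and 27.0, 32.1, 35.2, 30.3 and 33.6 RPM in TGNT rats. It varied more than Gclc between rats of the same genotype, with coefficients of variation of 13.8% and 10.1%, while the log2 fold change was 0.07 (95% interval -0.16 to 0.29; exact permutation p = 0.571). Slc7a11, the cystine importer of system xc-, measured 493, 469, 478, 459 and 531 RPM in WTNT rats and 476, 427, 547, 540 and 566 RPM in TGNT rats. Although 3 TGNT rats lay above every WTNT rat, the lowest rat was also transgenic, and the log2 fold change was 0.08 (95% interval -0.08 to 0.24; exact permutation p = 0.397).

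The last 2 genes act in the thioredoxin and peroxiredoxin system. Txnrd1, the cytosolic thioredoxin reductase, ranged from 74.3 to 87.8 RPM in WTNT rats and from 76.6 to 87.1 RPM in their transgenic counterparts (log2 fold change 0.03, 95% interval -0.10 to 0.17; exact permutation p = 0.603). Srxn1, which restores overoxidised peroxiredoxins, had the lowest permutation p of the 9 genes. It measured 50.2, 43.4, 44.1, 44.7 and 50.03 RPM in WTNT rats and 40.0, 39.2, 48.0, 44.7 and 41.4 RPM in TGNT rats, so 3 TGNT rats lay below every WTNT rat. The means of 46.5 ± 3.35 and 42.7 ± 3.68 RPM (SD, n = 5 each) differed by a log2 fold change of -0.11 (95% interval -0.28 to 0.05; exact permutation p = 0.119, where 5 rats against 5 can reach 0.00794). The estimated counts of Srxn1 were whole numbers in 1 of 10 rats and those of Slc7a11 in 0 of 10, which shows that some of their reads were shared out among genes, and their levels are the more uncertain for it.

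**Figure D1:**
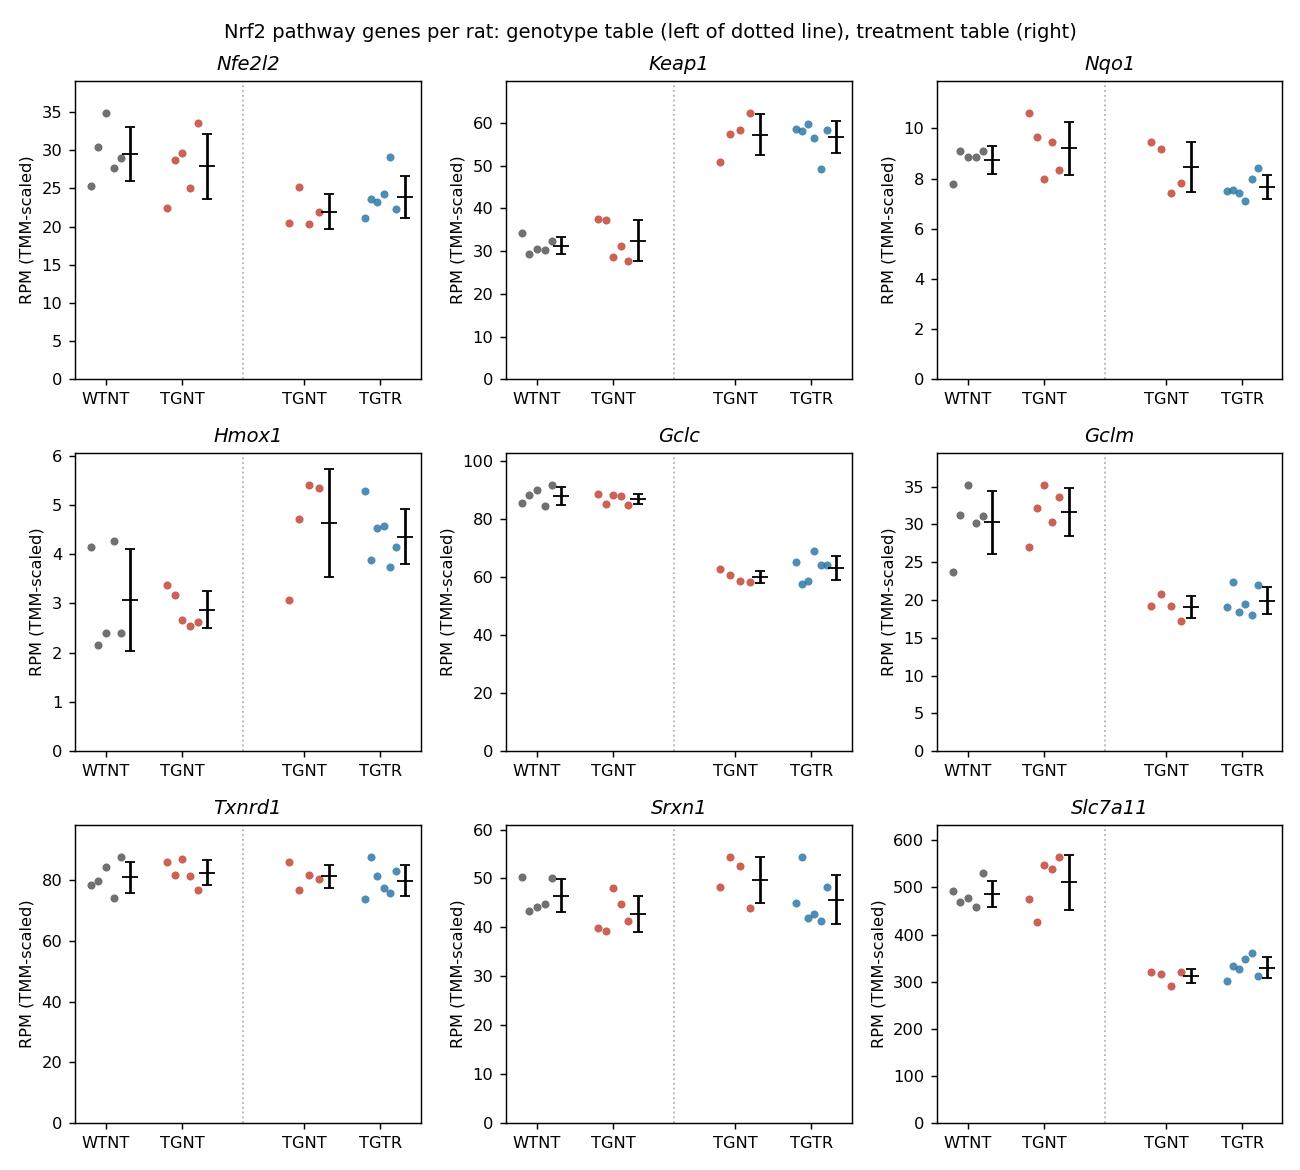
Level of each of the 9 genes in every rat, in TMM-scaled RPM from 0, with 1 point per rat and the mean ± SD beside each group; the genotype table (5 WTNT, 5 TGNT) lies left of the dotted line and the treatment table (4 TGNT, 6 TGTR), normalised apart, lies right of it. Within each table the points of both groups overlap for all 9 genes, and Hmox1 in WTNT rats has the widest spread relative to its mean (coefficient of variation 33.9%).

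Between DZ/DIB-treated and untreated transgenic rats, too, no difference was detected in any of the 9 genes. With edgeR's quasi-likelihood test 0 of 9 were called, the adjusted p ranged from 0.99 to 1, and 0 of 9 reached an unadjusted p under 0.05. The likelihood ratio test, DESeq2 and limma-trend again called 0 of 9. Over all genes 0.0% were called by the quasi-likelihood test, which is 0 of 17168 against 5 by the likelihood ratio test and 3 by DESeq2, and 4.91% had an unadjusted p under 0.05. The groups overlapped for all 9 genes, and 1.15% of all genes had groups without overlap. Of the 9, 4 were higher and 5 lower in TGTR rats, and the median log2 fold change was -0.01 against 0.00048 over the 14861 genes with reads. Scaled by library size only, with no TMM factors, the split was 6 higher and 3 lower. All 9 of the 95% intervals included 0 and lay inside 1.5-fold, 6 of them inside 1.25-fold. Beside these values, 12 of 12 choroid plexus, 4 of 4 blood, 7 of 8 meningeal and fibroblast, 7 of 7 oligodendrocyte and 6 of 6 endothelial markers were on the higher side in TGTR rats. On the lower side were 7 of 7 astrocyte, 6 of 7 neuronal and 6 of 8 microglial markers. An unadjusted p under 0.05 was reached by 7 choroid plexus and 2 endothelial markers, all higher, and by 0 of the other lists. Their part in the values of the Nrf2 genes was not tested. With TGTR rats 4, 5 and 6 left out together, an alternative added after the data were seen, 0 of 9 were called and the log2 fold changes ran from -0.18 for Nqo1 to 0.07 for Gclm.

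Nfe2l2 had the most positive log2 fold change, 0.12 (95% interval -0.08 to 0.33; exact permutation p = 0.276). It measured 20.4, 25.2, 20.4 and 21.9 RPM in the 4 TGNT rats and 21.1 RPM at the lowest, 23.4 at the median and 29.1 at the highest among the 6 TGTR rats. Its highest value was in TGTR rat 5, the library with the most choroid plexus and meningeal markers, and without that rat the log2 fold change was 0.06. Keap1 measured 50.7, 57.3, 58.3 and 62.3 RPM in TGNT rats. In TGTR rats it ranged from 49.3, again in rat 5, through a median of 58.2 to 59.8 RPM, and the log2 fold change was -0.01 (95% interval -0.15 to 0.13; exact permutation p = 0.857).

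Nqo1 had the lowest log2 fold change of the 9, -0.14. It measured 9.46, 9.17, 7.44 and 7.82 RPM in TGNT rats and 7.10 RPM at the lowest, 7.52 at the median and 8.44 at the highest in TGTR rats. No TGTR rat lay above the TGNT median, but the lower 2 TGNT rats lay within the TGTR range (95% interval -0.37 to 0.08; exact permutation p = 0.143, where 4 rats against 6 can reach 0.00952). Hmox1 measured 3.07, 4.71, 5.41 and 5.34 RPM in TGNT rats against a lowest of 3.74, a median of 4.33 and a highest of 5.28 RPM in TGTR rats. The lowest and the highest of these 10 rats were both untreated, and the log2 fold change was -0.08 (95% interval -0.46 to 0.29; exact permutation p = 0.581). The upper end of the 95% interval was a 1.06-fold rise for Nqo1 and a 1.22-fold rise for Hmox1. These intervals come from 1 fit of 4 against 6 rats and do not exclude a larger rise.

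The 3 glutathione genes had small positive estimates. Gclc ranged from 58.2 to 62.7 RPM in TGNT and from 57.7 to 68.8 RPM in TGTR rats (log2 fold change 0.07, 95% interval -0.05 to 0.19; exact permutation p = 0.238). Gclm measured 19.2, 20.8, 19.2 and 17.2 RPM in TGNT rats and 18.1 RPM at the lowest, 19.3 at the median and 22.4 at the highest in TGTR rats (log2 fold change 0.06, 95% interval -0.12 to 0.25; exact permutation p = 0.457). Slc7a11 measured 320, 316, 290 and 321 RPM in TGNT rats. In TGTR rats it measured 300 RPM at the lowest, 330 at the median and 360 at the highest, and 4 of the 6 treated rats lay above every untreated rat. The means were 312 ± 14.9 (SD, n = 4) and 330 ± 22.4 RPM (SD, n = 6), with a log2 fold change of 0.08 (95% interval -0.04 to 0.21; exact permutation p = 0.181).

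Txnrd1 ranged from 76.8 to 86.1 RPM in TGNT and from 73.7 to 87.5 RPM in TGTR rats, a log2 fold change of -0.02 (95% interval -0.14 to 0.10; exact permutation p = 0.657). Srxn1 measured 48.2, 54.3, 52.5 and 43.9 RPM in TGNT rats and 41.4 RPM at the lowest, 43.8 at the median and 54.5 at the highest in TGTR rats. Although 3 treated rats lay below every untreated rat, TGTR rat 2 was the highest of the 10, and the log2 fold change was -0.12 (95% interval -0.30 to 0.06; exact permutation p = 0.248). Without TGTR rat 2 the unadjusted p of edgeR's quasi-likelihood test was 0.0262 and the adjusted p 0.764, the only unadjusted p under 0.05 among the 180 fits of these genes that left out a single rat. The estimated counts of Srxn1 and Slc7a11 were fractions in all 10 rats of this table. On either strand of GRCr8, Hmox1 overlaps 1 other annotated gene and Txnrd1 overlaps 4. The estimated counts of Hmox1 and Txnrd1 were whole numbers in 10 of 10 rats of each table, so they show no sign of reads shared among the genes counted. The counts were made on another build, rn6. Whether the overlapping genes were annotated there was not checked, so whole numbers cannot show whether their reads were counted here.

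**Figure D2:**
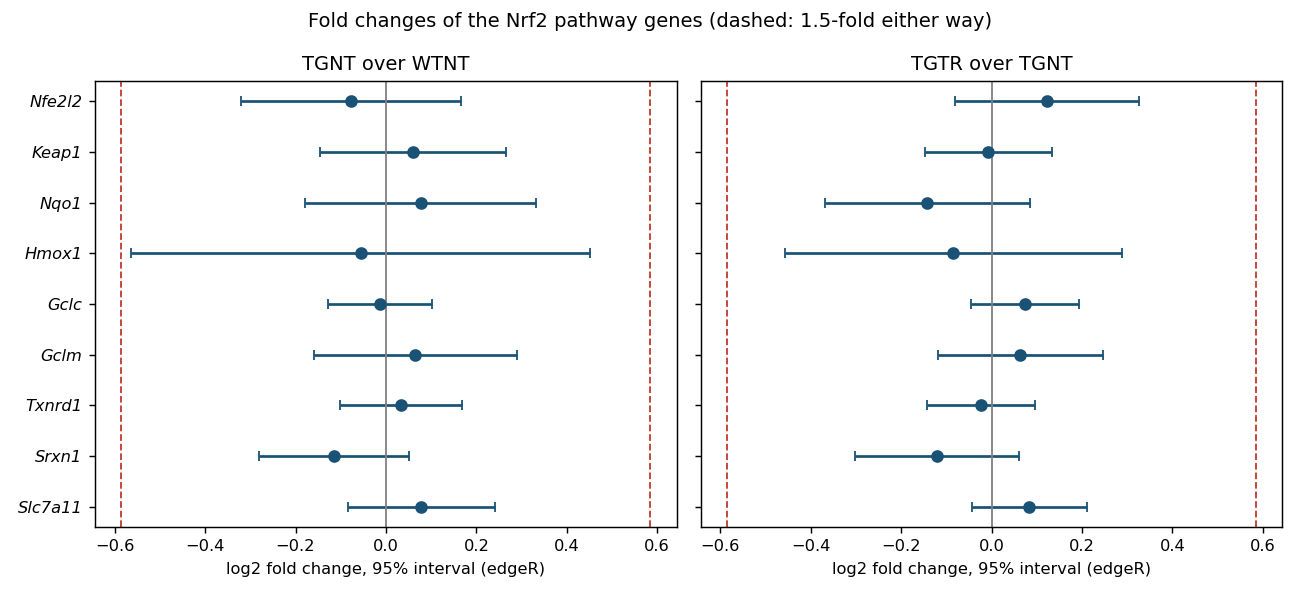
Log2 fold change of each of the 9 genes with its 95% interval from edgeR's quasi-likelihood fit, TGNT over WTNT on the left (5 rats each) and TGTR over TGNT on the right (6 and 4 rats), with dashed lines at a 1.5-fold change. All 18 intervals cross 0 and end inside the dashed lines, the widest being that of Hmox1 in the genotype comparison (-0.56 to 0.45).

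Set side by side, the pair of comparisons gave the log2 fold change the same sign in 4 of the 9 genes: Gclm and Slc7a11 were on the higher side in both, and Hmox1 and Srxn1 on the lower side in both, with no interval that left out 0. The sign of Hmox1 in both comparisons and of Gclm in the genotype comparison turned when a single rat was left out. The comparisons used separate TGNT samples, which were taken as different rats.

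The other genes of the pathway were taken from 7 lists of 60 genes, of which 57 were found by symbol; Nfe2l1, Bach2 and Pgd were not. In the genotype comparison 0 of 57 were called, and 38 were higher and 19 lower in TGNT rats. Their median log2 fold change was 0.06 against 0.0068 over all genes with reads, of which 52.0% were higher. With RLE scaling 36 of the 57 were higher and 21 lower, with upper quartile scaling 38 and 19, and with library size only 41 and 16. The lists were not tested as sets. Only 1 of 57 (1.75%) had an unadjusted p under 0.05, against 3.23% of all genes. This was Mgst3, a microsomal glutathione transferase and peroxidase, at 41.0 ± 6.78 RPM in WTNT and 50.005 ± 4.06 RPM in TGNT rats (SD, n = 5 each; log2 fold change 0.29; adjusted p = 1 with edgeR's quasi-likelihood test). Gpx4, which reduces lipid peroxides, was next in the glutathione list, with a log2 fold change of 0.13. In the other lists the 2 genes with the lowest p were Btrc and Gsk3b (0.09 and -0.04), which take part in a Keap1-independent degradation of Nrf2, Prdx2 and Prdx3 (0.12 and 0.17), both peroxiredoxins, and Cat and Sod3 (0.07 and 0.12), catalase and the extracellular superoxide dismutase. They were Idh1 and Me1 (0.15 and 0.06) among the suppliers of NADPH, Blvrb and Blvra (0.24 and 0.16), the biliverdin reductases that act after Hmox1, and Nqo2 (0.24) and Osgin1 among detoxifying genes. Osgin1 had 0 to 3 counts per rat, too few for a fold. All of these had an adjusted p of 1 in the same test.

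In the treatment comparison 0 of 57 were called, and 29 were higher and 28 lower in TGTR rats. Their median log2 fold change was 0.0029 against 0.00048 over all genes with reads. An unadjusted p under 0.05 was reached by 3 of 57 (5.26%), against 4.91% of all 17168 genes, of which 14861 had reads. Gstp1, a glutathione transferase, measured 60.1 ± 7.64 RPM in 4 TGNT rats and 70.1 ± 4.85 RPM in 6 TGTR rats (SD; log2 fold change 0.22; adjusted p = 0.964 with edgeR's quasi-likelihood test). Btrc measured 62.6 ± 4.49 and 68.4 ± 3.05 RPM (log2 fold change 0.13; adjusted p = 0.964), and Txnip, the inhibitor of thioredoxin, 49.3 ± 5.37 and 60.2 ± 12.1 RPM (log2 fold change 0.29; adjusted p = 0.99). In each of these 3 the groups overlapped. The rest had an adjusted p of 0.99 or 1. Among them were Bach1 (0.18), a repressor at AREs, Ggt7 (-0.12), Txn1 (-0.16), the cytosolic thioredoxin, Sod2 and Sod3 (0.09 and 0.07), Me1 and Idh1 (-0.10 and 0.04), Ftl1 and Hmox2 (0.09 and -0.08), and Aox1 and Osgin1 (-0.18 and -0.42). With TMM scaling all 4 genes of superoxide and peroxide removal were on the higher side and 11 of 15 glutathione genes on the lower side, none of them called. Scaling by library size only gave 38 higher and 19 lower, and upper quartile scaling 26 and 31. In the treatment comparison, then, no direction of the lists as a whole held under every scaling.

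**Figure D3:**
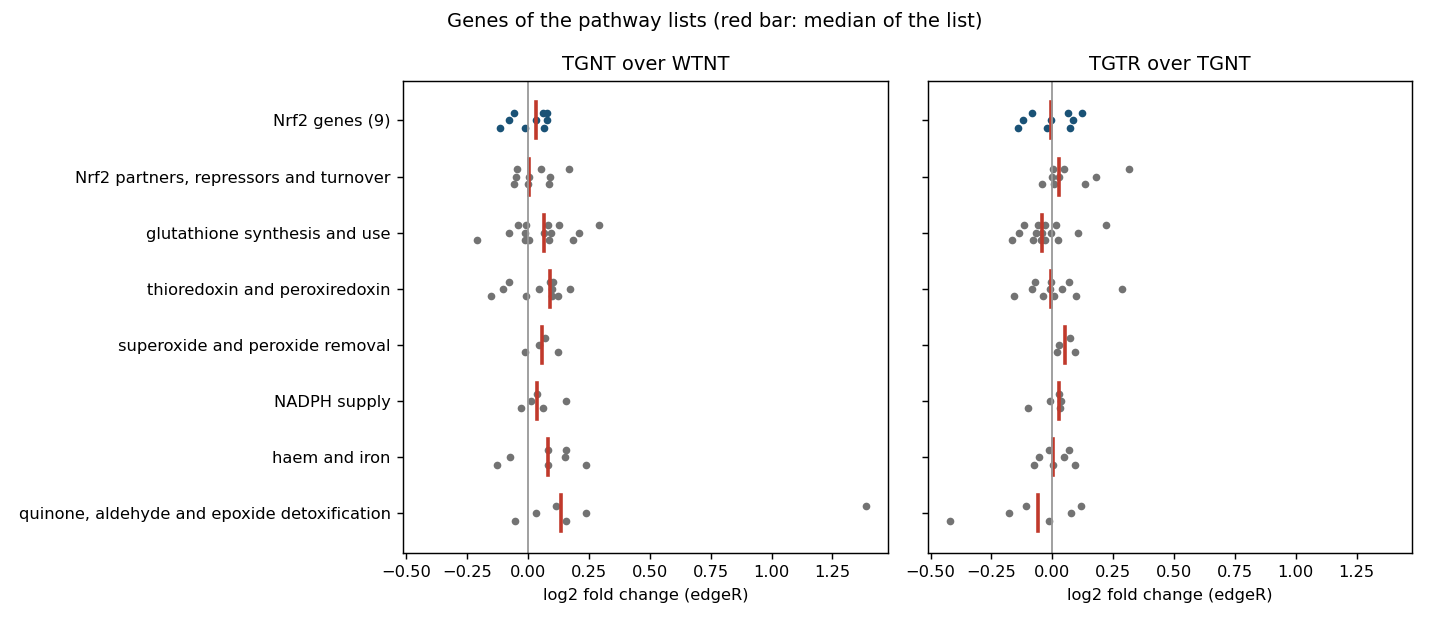
Log2 fold change of each gene of the 7 pathway lists (57 genes, grey) and of the 9 Nrf2 genes (blue), TGNT over WTNT on the left and TGTR over TGNT on the right, with a red bar at each list's median. The medians of the lists lie between -0.06 and 0.14, and the farthest point is Osgin1 in the genotype comparison, with 0 to 3 counts per rat.

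Levels also varied between rats of the same group, and it was asked whether the 8 other genes varied with Nfe2l2 from rat to rat. Each rat's log2(RPM + 1) was taken relative to its group mean, and 16 relations were tested, 8 in each table of 10 rats. In the genotype table Gclm varied with Nfe2l2 (Pearson r = 0.864, exact permutation p = 0.00257, adjusted over the 16 relations 0.0411; Spearman rho = 0.915, exact permutation p = 0.00139, adjusted 0.0222). Without TGNT rats 1 and 5, the farthest from the median of Nfe2l2, r was 0.904. WTNT rat 3 had the highest level of both genes in its group, 34.9 RPM of Nfe2l2 and 35.2 of Gclm, and WTNT rat 1 the lowest of both, 25.4 and 23.7. WTNT rat 3 also had the highest sum of oligodendrocyte markers of the table, 10211 RPM, and TGNT rat 1, the lowest in Nfe2l2 and in Gclm among TGNT rats, had the lowest sum, 4265 RPM. TGNT rat 5, the highest of its group in Nfe2l2 at 33.5 RPM, had the highest sum of its group, 7719 RPM. WTNT rat 2 was second highest of its group in Nfe2l2, Gclm and the sum, at 30.4, 31.2 and 8976 RPM. Not every rat followed this order. TGNT rat 3, with the highest Gclm of its group, had a low sum of 5240 RPM. WTNT rat 5, with the lowest WTNT sum of 4523 RPM, had 28.997 RPM of Nfe2l2 and 31.1 of Gclm. The part of cell composition in this relation was not tested. The share of all genes that vary as closely with Nfe2l2 was not counted, so the relation cannot be called particular to an Nrf2 target.

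In the treatment table no such relation of Gclm was detected (r = -0.124, exact permutation p = 0.755, adjusted 0.929; rho = -0.188, exact permutation p = 0.631, adjusted 0.779). There the closest gene was Slc7a11 (r = 0.751, exact permutation p = 0.0194, adjusted 0.156; rho = 0.818, exact permutation p = 0.00666, adjusted 0.0532), a relation that failed the adjustment. TGTR rat 5, the library with the choroid plexus markers, was highest in both Nfe2l2 and Slc7a11, and without it and TGNT rat 2 the r was 0.856. In the genotype table the r of Slc7a11 was 0.231 (exact permutation p = 0.597, adjusted 0.929; rho = 0.358, exact permutation p = 0.389, adjusted 0.779). Whether the relations differed between the tables was not tested. None of the other 12 relations passed, and the largest r among them was an inverse one of Keap1 in the genotype table (r = -0.652, exact permutation p = 0.0833, adjusted 0.333; rho = -0.600, exact permutation p = 0.135, adjusted 0.718), with r = -0.302 without TGNT rats 1 and 5. Hmox1 in the same table had the lowest p of r among the 12 (r = -0.567, exact permutation p = 0.0599, adjusted 0.320; rho = -0.418, exact permutation p = 0.185, adjusted 0.739), with r = -0.577 without those rats.

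**Figure D4:**
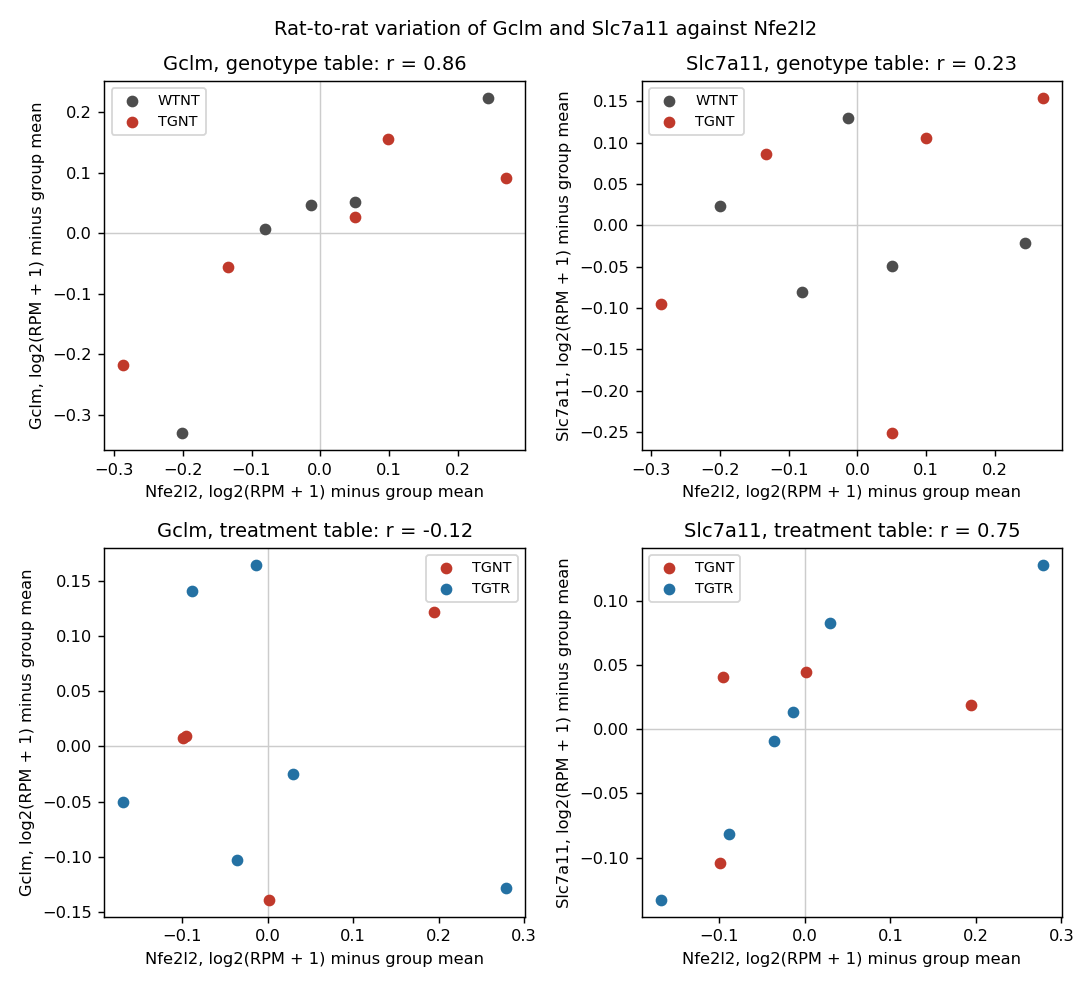
Rat-to-rat variation of Gclm and Slc7a11 (vertical axes) against Nfe2l2 (horizontal axes), each as log2(RPM + 1) minus the mean of the rat's group, with 1 point per rat, the genotype table above and the treatment table below. Gclm follows Nfe2l2 in the genotype table (r = 0.864) and not in the treatment table (r = -0.124), and Slc7a11 has r = 0.231 and r = 0.751.

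Among the 36 pairs that the 9 genes form, the median Pearson r across rats was 0.0017 in the genotype table, with 18 pairs above 0, and -0.09 in the treatment table, with 16 above 0. The pair with the most similar variation in both tables was Keap1 and Hmox1, with r = 0.457 and r = 0.762. All pairs share libraries and scaling factors, so these values describe the 10 rats of each table only.

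The genes most like Nfe2l2 across rats, by the lower of the Pearson r of the 2 tables among 11554 genes with a mean of at least 1 RPM, were Fbln5 (r = 0.743 and 0.872), which encodes an extracellular matrix protein, and Glb1 (0.743 and 0.771), the lysosomal β-galactosidase. For Nqo1 they were LOC100125367 (r = 0.785 and 0.712), Cpsf3l (0.687 and 0.857) and Rcan3 (0.675 and 0.810), and for Hmox1 they were Pkig (0.857 and 0.901), RGD1305455 (0.893 and 0.854) and Rcn3 (0.830 and 0.978). None of the 9 Nrf2 genes was among them. These are the highest of many values over 10 rats a table and are given as a description.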

How the data were processed

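Poly(A) mRNA of 20 hippocampi was sequenced by the authors from strand-specific libraries (Kapa Stranded mRNA Kit), 1 per rat. The submitters' processing notes name bcl2fastq 2.17, Bowtie2 2.1.0, RSEM 1.2.15, edgeR and the rn6 build. Each comparison has its own pair of deposited tables: estimated counts per gene symbol, not normalised, and RPM, a signal that the authors made by scaling the counts with TMM factors. Rats were matched to groups by their titles, and 0 columns were left without a sample. Fractional counts from RSEM divide reads that map to more than 1 gene.

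After rounding to whole numbers, the estimated counts were fitted per comparison over all 17168 genes with edgeR 4.0.16 (R 4.3.3; TMM, quasi-likelihood test, no filter), with Benjamini-Hochberg adjustment. A call needed both an adjusted p under 0.05 and at least a 1.5-fold difference. RPM of single genes were compared with exact two-sided permutation tests (scipy 1.17.1), 18 in all and not adjusted. Correlations to Nfe2l2 used exact permutations of the rats within groups. P-values of group differences set the difference against the variation between rats. The fits were tested on simulated data. Alternatives were other scalings, filterByExpr, the likelihood ratio test, DESeq2 1.42.0, limma-trend 3.58.1 on log2 RPM with 1 or 0.1 added, a replicate block, no fold threshold and leaving out each rat.

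The 9 genes, the 7 pathway lists and the 8 marker lists were chosen with earlier results of these data known. Named beside the 9 genes are the 2 genes of each pathway list with the lowest p in a comparison, every gene past the threshold, the 3 genes most like Nfe2l2, Nqo1 and Hmox1, and App and Ttr as checks. Under this rule 1 gene is not reported here. Levels are not divided by length, so levels of different genes are not compared. Sequences are from RefSeq (GRCr8), not from the build behind the counts.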

Additional observations from a re-analysis of the deposited data

Results flagged for a closer look

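In 36 groups (9 genes in 4 groups of rats), a rat's RPM was tested for a gap from its group by Dixon's criterion, and 2 stood apart, where chance gives about 1 in 20, or 1.8. Nqo1 measured 7.79 RPM in WTNT rat 1, against 8.88 to 9.10 RPM in the other 4 WTNT rats. Keap1 measured 49.3 RPM in TGTR rat 5, against 56.5 to 59.8 RPM in the other 5 TGTR rats. TGTR rat 5 is also the library with 3026 RPM of choroid plexus markers, and the part of these in the Keap1 value was not tested.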

How the results depend on the processing

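Under every alternative, leaving out each rat included, 0 of the 9 genes and 0 of the 57 pathway genes were called. Over all genes the likelihood ratio test called 4 in the genotype comparison and 5 in the treatment comparison, DESeq2 called 3 in the treatment comparison, and TGTR rats 1 to 3 alone gave 1, against 2 and 0 with the quasi-likelihood test. The cause was not tested. Of 162 log2 fold changes of the 9 genes under other scalings, filters, tests and the block, 159 kept their sign, and of 180 with a rat left out, 169 did. Signs turned for Keap1 in the treatment comparison with library size only (0.0297), the replicate block (0.0292) and TGTR rats 1 to 3 alone (0.0397), and for Txnrd1 there with library size only (0.0134). With library size only, 83.4% of 1036 genes at an unadjusted p under 0.05 were higher in TGTR rats, against 60.6% of 843, and the median of the 9 genes was 0.03. In the genotype comparison the share was 53.4%, 45.9% with RLE and 60.4% with library size only.

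With a rat left out, log2 fold changes whose sign turned ranged, in the genotype comparison, from -0.0340 to 0.0034 for Gclc, -0.0134 to 0.122 for Gclm, -0.179 to 0.0780 for Hmox1, -0.0023 to 0.105 for Keap1 and -0.0018 to 0.0652 for Txnrd1, and in the treatment comparison from -0.235 to 0.00036 for Hmox1, -0.0581 to 0.0336 for Keap1 and -0.0527 to 0.0071 for Txnrd1. Differences in mean RPM ranged, in the genotype comparison, from -0.278 to 2.61 for Gclm, -0.432 to 0.0980 for Hmox1, -0.0788 to 2.40 for Keap1, -0.0476 to 3.34 for Txnrd1 and -5.18 to -2.90 for Srxn1, and in the treatment comparison from -2.57 to 1.28 for Keap1, -2.98 to 0.170 for Txnrd1, -0.797 to -0.0162 for Hmox1 and 0.916 to 3.02 for Nfe2l2. Of these 180 differences 3 had an exact permutation p of 0.0476: Srxn1 without TGNT rat 3 (genotype), Nfe2l2 without TGNT rat 2 and Hmox1 without TGNT rat 1 (treatment).

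Without the 2 rats farthest from the median of Nfe2l2, r changed sign to 0.162 for Nqo1, -0.175 for Slc7a11 and 0.533 for Txnrd1 in the genotype table, and to -0.168 for Gclc, 0.225 for Keap1, -0.330 for Nqo1 and 0.281 for Txnrd1 in the treatment table.

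Rats of the same number deviated together with r from -0.2 to 0.326 in the genotype and from -0.584 to 0.139 in the treatment comparison, not every rat was closest to its own number, and the numbers were not taken as pairs. With the replicate block 0 of 9 genes were called in either comparison, and 553 and 406 genes had an unadjusted p under 0.05, against 554 and 843 without it. Counts were lowest for Hmox1, with 15 to 27 counts per rat in the genotype table and 35 to 74 in the treatment table, then Nqo1 with 47 to 89 and 79 to 108. Intervals cover the spread between these rats only.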

Other observations

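The TGNT rats of the pair of tables share their genotype, sex and age, but the tables were normalised apart and no test was made between them. Keap1 measured 32.5 ± 4.70 RPM (SD, n = 5) in the TGNT rats of the genotype table and 57.2 ± 4.799 RPM (SD, n = 4) in those of the treatment table. Gclm went the other way, from 31.7 ± 3.19 to 19.1 ± 1.48 RPM, as did Slc7a11, from 511 ± 57.9 to 312 ± 14.9 RPM, and Gclc, from 86.9 ± 1.85 to 60.02 ± 2.04 RPM, and in these 4 genes the ranges of the rats did not meet. Of the 9 genes 4 differed by 1.5-fold or more between the tables: Keap1, Gclm, Slc7a11 and Hmox1. The ranges of Hmox1 overlapped, and Gclc differed by 1.45-fold. Ranges were apart in 4 of the 9. Among 11524 genes 33.9% differed by 1.5-fold or more and 55.1% had ranges apart. For Keap1, Gclm, Slc7a11 and Gclc the gap was wider than the one between the groups within either table. Levels of the Nrf2 genes from different tables are therefore not comparable.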
